A study of Mus musculus with 6 samples.

Results

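Hox genes encode homeodomain transcription factors that give cells along the head-to-tail axis their regional identity. In the cochlea of mice at postnatal day 7, 1 of them, Hoxa2, was expressed above an FPKM of 1, and the rest were low, near silent or without a row in the deposited table. Members were the protein-coding rows whose symbol is Hox, a cluster letter from a to d and a paralog number. There were 23 of them among the 30462 genes of the table. The GENCODE M21 annotation (GRCm38) holds 39 such genes in 4 clusters, and the other 16 (Hoxa6, Hoxa10, Hoxa13, Hoxb6, Hoxb7, Hoxb8, Hoxb13, Hoxc6, Hoxc9, Hoxc10, Hoxc11, Hoxc12, Hoxc13, Hoxd11, Hoxd12 and Hoxd13) had no row and were not analysed here. Each of the 30462 rows was above 0 in at least 1 library.

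The samples were 3 cochleae labelled NEU4 KO (replicates 2, 4 and 5) and 3 labelled WT (replicates 3, 4 and 5), all at postnatal day 7 per the series title. Neu4 encodes a sialidase, which removes sialic acid from glycoproteins and glycolipids. The labels give neither the allele, the strain, nor whether each library is a separate animal. The tests weigh differences against the spread among the 6 libraries, which may be technical. The values are FPKM, fragments scaled by exon length and library size, and they implied library totals of 15170973 to 17192293 fragments. Neu4 itself had an FPKM of 0.0518, 0.102 and 0.0853 in knockouts 2, 4 and 5, and of 0.0523, 0.10035 and 0.0810 in wild types 3, 4 and 5, an order kept for all values below. The level of Neu4 was low in both groups and did not check the labels, so directions below refer to the libraries labelled knockout. Knockout 2 and wild types 3 and 4 were male by Ddx3y and Xist, and the other 3 libraries female. Hair cell and strial markers of the cochlea were present in all 6 libraries, with Otof, the synaptic protein otoferlin, at 6.88 to 8.62 FPKM.

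The genes of a Hox cluster lie in the order in which they act along the body axis, with paralog group 1 at the anterior end and group 13 at the posterior end. Neural crest of the first pharyngeal arch and of the face forms without Hox expression, whereas that of the second arch, which gives the stapes and other parts around the ear, is patterned by Hoxa2. In the hindbrain, the groups 1 to 4 mark rhombomeres, the segments next to which the ear forms. Hox proteins bind DNA with partners of the TALE homeodomain class, the Pbx, Meis and Pknox proteins, and Polycomb proteins keep Hox genes silent where they are not used.

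Hox RNA lay mostly in the anterior paralogs. All 8 annotated genes of groups 1 to 3 had a row, against 10 of 15 in groups 4 to 8 and 5 of 16 in groups 9 to 13. Together the Hox members had 1024 fragments over the 6 libraries, 785 of them (76.7%) in groups 1 to 3, 206 (20.1%) in groups 4 to 8 and 33 (3.22%) in groups 9 to 13. Without Hoxa2, groups 1 to 3 held 294 fragments, against the same 206 and 33. Groups 6, 12 and 13 had no member with a row. Over the 23 members, Spearman's rho between mean FPKM and paralog number was -0.58. This is a description across genes that share libraries and depth, and it leaves out the genes without a row.

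By cluster, Hoxa held most of the Hox RNA and Hoxc almost none. The Hoxa cluster (chromosome 6) had rows for 8 of 11 genes and 659 fragments, or 168 without Hoxa2. The Hoxd cluster (chromosome 2, 74668310 to 74765142) had 6 of 9 genes and 216 fragments, and Hoxb (chromosome 11, 96194316 to 96368256) had 6 of 10 genes and 139 fragments. Hoxc (chromosome 15, 102921103 to 103036852), whose genes are known from trunk and limb, had 3 of 9 genes and 10 fragments in all. Classes were set by the mean FPKM over the 6 libraries. With at least 1 as expressed, 0.1 to under 1 as low and under 0.1 as near silent, 1 member was expressed, 8 were low and 14 were near silent.

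Hoxa2, the selector gene of second-arch crest, was the most abundant member in every library. Hoxa2 (ENSMUSG00000014704, chromosome 6, 52162417 to 52164831, minus strand) had an FPKM of 2.27, 2.03 and 2.97 in the knockouts, and of 3.62, 2.56 and 3.49 in the wild types. These values rest on 67, 61 and 80 fragments and on 106, 78 and 99 fragments. Hoxa2 took 47.9% of all Hox fragments (491 of 1024, exact 95% binomial interval 44.9% to 51.1%, counting error only), and between 41.2% and 55.0% in single libraries. Its mean of 2.82 FPKM was 6.76 times that of the next member, Hoxd1, and 46.6% of the 18070 protein-coding rows had a lower mean. Of those rows, 68.8% had a mean FPKM of at least 1.

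Promoter sequences of 300 bases, 250 before to 50 after the start, were in the RefSeq table (GRCm38.p6) for 15 of the 23 members. Those of the 3 members with the highest level are shown, because they let the expressed gene be set beside the low ones, together with that of Hoxb1. Each is written 5′ to 3′ on the gene's strand, and capitals mark matches, on either strand, to TGATNNAT, letters that Pbx-Hox pairs are known to bind, and to TGACAG, letters known for Meis proteins.
Hoxa2 (chr6:52164782-52165081, minus strand): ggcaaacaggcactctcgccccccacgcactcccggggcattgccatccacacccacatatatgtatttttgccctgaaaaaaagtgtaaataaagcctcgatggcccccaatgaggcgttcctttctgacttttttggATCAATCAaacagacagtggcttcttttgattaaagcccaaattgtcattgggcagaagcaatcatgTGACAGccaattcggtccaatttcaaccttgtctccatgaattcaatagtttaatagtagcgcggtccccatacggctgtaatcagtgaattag
Hoxd1 (chr2:74762730-74763029, plus strand): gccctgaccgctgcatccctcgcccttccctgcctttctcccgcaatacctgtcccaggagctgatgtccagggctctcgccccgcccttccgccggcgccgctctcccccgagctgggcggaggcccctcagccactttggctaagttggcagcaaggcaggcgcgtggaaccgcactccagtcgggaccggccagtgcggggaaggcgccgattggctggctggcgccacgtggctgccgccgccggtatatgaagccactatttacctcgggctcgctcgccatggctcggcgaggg
Hoxd8 (chr2:74704365-74704664, plus strand): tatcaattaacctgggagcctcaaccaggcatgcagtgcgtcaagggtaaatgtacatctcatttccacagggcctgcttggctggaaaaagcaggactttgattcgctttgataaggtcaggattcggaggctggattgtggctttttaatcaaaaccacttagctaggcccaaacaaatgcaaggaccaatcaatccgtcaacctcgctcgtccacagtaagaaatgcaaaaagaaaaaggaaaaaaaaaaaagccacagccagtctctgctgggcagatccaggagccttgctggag
Hoxb1 (chr11:96365508-96365807, plus strand): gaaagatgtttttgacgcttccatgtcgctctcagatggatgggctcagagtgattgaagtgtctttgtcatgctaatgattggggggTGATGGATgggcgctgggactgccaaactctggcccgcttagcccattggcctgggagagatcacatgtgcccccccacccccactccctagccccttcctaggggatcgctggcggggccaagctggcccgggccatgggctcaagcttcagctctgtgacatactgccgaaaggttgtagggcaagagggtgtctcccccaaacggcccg

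The Hoxa2 promoter held 1 match to each motif, and was the only 1 of the 15 member promoters that held both. Of all 32851 promoters of this length in the table, 8.85% held TGATNNAT, 19.2% held TGACAG and 1.85% held both. Among the 15, TGATNNAT was also found in Hoxb1, and TGACAG also in Hoxa3. The number of CG dinucleotides was 9 in Hoxa2, 29 in Hoxd1, 6 in Hoxd8 and 10 in Hoxb1, against a median of 14 over the 15 and of 7 over all promoters. The expressed gene therefore did not hold the most. Both motifs were searched on both strands, and their matches in Hoxa2 shared no base. A match describes letters in this window and is not a measured site.

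Of the 8 low members, Hoxd1 and Hoxd8 stood above the rest. Hoxd1 (chromosome 2, 74762980 to 74765142), the anterior end gene of its cluster, had an FPKM of 0.258, 0.666 and 0.283 in the knockouts and of 0.455, 0.406 and 0.437 in the wild types. The highest and the lowest value were both in knockouts, so the groups overlapped. Hoxd8 (74704615 to 74707933), a central member, had an FPKM of 0.350, 0.452 and 0.336 in the knockouts and of 0.419, 0.360 and 0.296 in wild type, on 13 to 21 fragments a library. It was nearly even across the libraries and held 100 of the 103 fragments of paralog group 8, the other 3 being those of Hoxc8. The span of Hoxd8 overlaps that of Hoxd3os1 on the other strand, so its fragments are uncertain.

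Of the other low members, Hoxa3, Hoxa4, Hoxa5, Hoxb2 and Hoxb4, had means between 0.116 and 0.138 FPKM. Hoxa3, which patterns derivatives of the more posterior arches such as the thymus, had 10, 7 and 14 fragments in the knockouts and 19, 14 and 17 in the wild types. Hoxb2, the paralog of Hoxa2 and known from the hindbrain, had 8, 8 and 2 fragments in the knockouts and 6, 18 and 5 in wild type. Hoxb4, a gene of the posterior hindbrain and of blood progenitors, had 12, 1 and 11 fragments in the knockouts and 1, 9 and 0 in wild type. Its fragment rate ratio of 2.45 had an exact interval of 1.13 to 5.73, counting error only. The libraries held 3 with 9 to 12 fragments and 3 with 0 or 1, and both kinds of library occurred in each genotype. Hoxa4 and Hoxa5 lie inside the span of Hoxa3 on the same strand, so these 3 are uncertain. Hoxa4 had 0, 2 and 4 fragments against 4, 4 and 4, and Hoxa5 2, 3 and 6 against 7, 0 and 6.

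**Figure D1:**
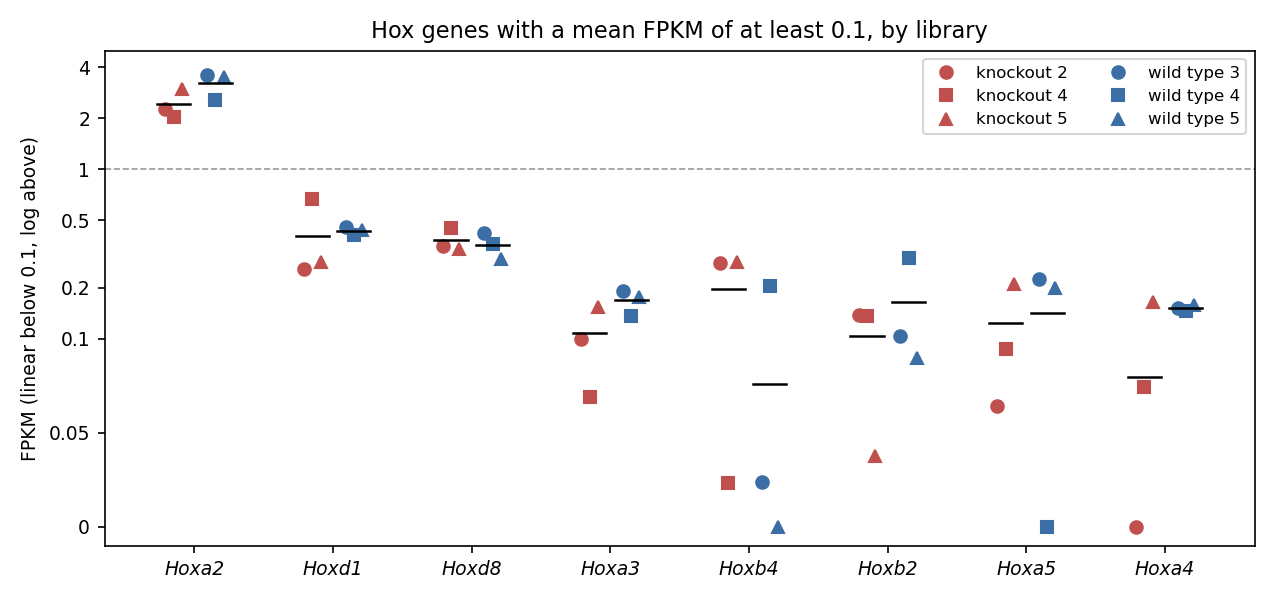
FPKM in each library of 8 members with a mean of at least 0.1 (red, knockout; blue, wild type; marker shape, replicate; black line, group mean). The vertical axis is linear below 0.1 and logarithmic above, and the dashed line is at 1. Hoxa2 lies above 1 in all 6 libraries, and none of the other 7 members plotted reaches 1 in any.

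The 14 near-silent members had means of 0.00314 to 0.0974 FPKM. Around the limit of the class, Hoxa4 lay just inside the low class at 0.116 and Hoxb3 just outside at 0.0974. Hoxb3, Hoxd9, Hoxb1, Hoxd4 and Hoxa9 had 41, 18, 14, 15 and 11 fragments over the 6 libraries, and the remaining 9 (Hoxc4, Hoxd10, Hoxc8, Hoxa7, Hoxd3, Hoxb5, Hoxa11, Hoxb9 and Hoxc5) had 1 to 6. Hoxd3, Hoxa11, Hoxb9 and Hoxc5 were above 0 in 1 library only. A value of 0 in a library allows up to 3 fragments. For these members that is 0.0313 to 0.109 FPKM depending on the gene and library, so 0 was not shown to be absence. Odorant receptor genes (Olfr), which serve the nose, give a level for genes not known to act in this tissue, a set chosen after seeing the data. Rows were present for 123 of 1093 annotated Olfr genes (11.3%), with a median mean FPKM of 0.00604 and a 95th percentile of 0.113, against 23 of 39 Hox genes (59.0%). Of the 22 Hox members other than Hoxa2, 8 lay above that 95th percentile, and their median was 0.0571.

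Fragments of Hoxd4 and Hoxa9 were mostly in knockouts, on very few fragments. Hoxd4 had 3, 1 and 9 fragments in the knockouts and 2, 0 and 0 in the wild types. Hoxa9, a gene of myeloid progenitors as well as of the trunk, had 4, 6 and 0 in the knockouts and 0, 1 and 0 in wild type. Knockouts 2 and 4 were also the libraries with the highest levels of the granule genes Mpo (1.77 and 1.54 FPKM, against 0.404 to 0.985 in the other 4) and Elane (2.26 and 1.74, against 0.191 to 0.887). The sum of the whole list of 10 haematopoietic progenitor genes did not follow Hoxa9, at 36.8, 35.3 and 35.1 FPKM in the knockouts and 33.1, 36.3 and 35.8 in the wild types, and 3 of its 4 tested genes were lower in knockout. Mpo and Elane were chosen after their values were seen, and the part of marrow cells in the Hoxa9 fragments was not tested. Both Hoxd4 and Hoxa9 overlapped between the groups. Hoxd4 lies inside the span of Hoxd3 on the same strand and overlaps Hoxd3os1 on the other, so its fragments are uncertain.

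Between the genotypes, no Hox member passed the test over all genes. The genes that reached an FPKM of 1 in 3 or more libraries were compared on log2(FPKM + 1) with limma, and 47 of 14072 (0.334%) had a Benjamini-Hochberg adjusted p under 0.05, 18 with higher values in knockout and 29 (0.206% of those tested) with lower ones, or 11 and 33 with median-ratio scaling. Of the 23 members, 1, Hoxa2, passed the filter, and 0 were called (0 also at an unadjusted p under 0.05, against 17.6% of the tested genes, 6.99% being lower). With no filter, 0 of the 23 members were called by limma, against 0.0624% of all 30462 rows, and 0 had an unadjusted p under 0.05. With voom, limma's method for counts, on fragments recovered from the FPKM, 9 members had at least 20 fragments, and 0 were called, against 1.67% of genes. At an unadjusted p under 0.05 the count by voom was again 0 of 9, against 16.7%.

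Hoxa2 had a lower mean in the libraries labelled knockout, but the groups overlapped and it was not called. Its mean was 2.42 ± 0.489 (SD, n = 3) FPKM against 3.22 ± 0.579 (SD, n = 3) in wild type, a ratio of 0.752. On the log2(FPKM + 1) scale the difference was -0.30 (SE 0.138, adjusted p = 0.313, limma). Knockout 5 lay above wild type 4, so the groups overlapped, and by exact permutation of the libraries p was 0.2, two-sided, where the smallest p for 3 against 3 is 0.1. The ratio of fragment rates was 0.749 with an exact 95% interval of 0.623 to 0.899, for counting error alone, narrower than the spread between libraries. In bulk tissue, fewer cells that use a gene and less RNA per cell cannot be told apart.

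Together, the 22 members other than Hoxa2 had 248 fragments in the libraries labelled knockout and 285 in wild type, a rate ratio of 0.887 (0.745 to 1.05, counting error only). In the fit without filter 8 of the 23 were higher and 15 lower, with a median log2 difference of -0.02 against 0.01 over all rows. Hoxb3 was the 1 member whose groups did not overlap, where 16.0% of all rows did not, 6.26% being lower. Its FPKM was 0.0988, 0.0834 and 0.0620 in the knockouts and 0.114, 0.123 and 0.103 in the wild types, on 4 to 9 fragments a library (exact permutation p = 0.1, and 0.92 adjusted over the 23 members). Its fragment rate ratio of 0.722 had an interval of 0.364 to 1.40. By cluster, the summed FPKM was 2.90 ± 0.653 against 3.86 ± 0.908 for Hoxa, 0.440 ± 0.116 against 0.438 ± 0.229 for Hoxb, and 0.935 ± 0.236 against 0.959 ± 0.02003 for Hoxd (SD, n = 3 each). Paralog group 3, which holds Hoxb3 and is only 1 of the paralog groups, summed to 0.189 ± 0.0328 against 0.300 ± 0.0178. It rests on 48 and 78 fragments, mostly of Hoxa3 and Hoxb3, both uncertain through overlapping genes. The mean sums of groups 1, 2, 5 and 9 were also lower in knockout, and those of groups 4, 7, 8, 10 and 11 were higher. Group 4, for example, was at 0.377 ± 0.266 against 0.280 ± 0.119. The Hoxc sum was 0.0147 ± 0.0128 against 0.0592 ± 0.0329, on 2 and 8 fragments.

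The groups did not overlap for the non-coding gene next to Hoxa2, and the call depended on the method. Hoxaas2 (ENSMUSG00000056445, chromosome 6, 52165674 to 52169564, plus strand), a processed transcript that lies between Hoxa2 and Hoxa3 and overlaps the end of Hoxa3 on the other strand, was the only other row of a Hox cluster with a mean above 1. It had an FPKM of 0.714, 0.668 and 0.981 in the knockouts and of 1.87, 1.44 and 1.43 in the wild types. All 3 knockouts lay below all 3 wild types, as did 9.54% of the tested genes. The means were 0.788 ± 0.169 and 1.58 ± 0.254 (SD, n = 3), a ratio of 0.498, and the rate ratio of 128 against 264 fragments was 0.494 (0.397 to 0.612, counting error only). The difference of -0.53 on the log2(FPKM + 1) scale (SE 0.117) was not called by limma (adjusted p = 0.116). It was called with voom on fragments (log2 -1.02, SE 0.218, adjusted p = 0.0377), which called 2.76% of genes. Hoxaas2 passed the filter through the wild type libraries alone, the group where it is high, so neither p stands as support. The sources used here do not say if counting was by strand, so fragments of Hoxaas2 and of the Hoxa3 end cannot be told apart.

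**Figure D2:**
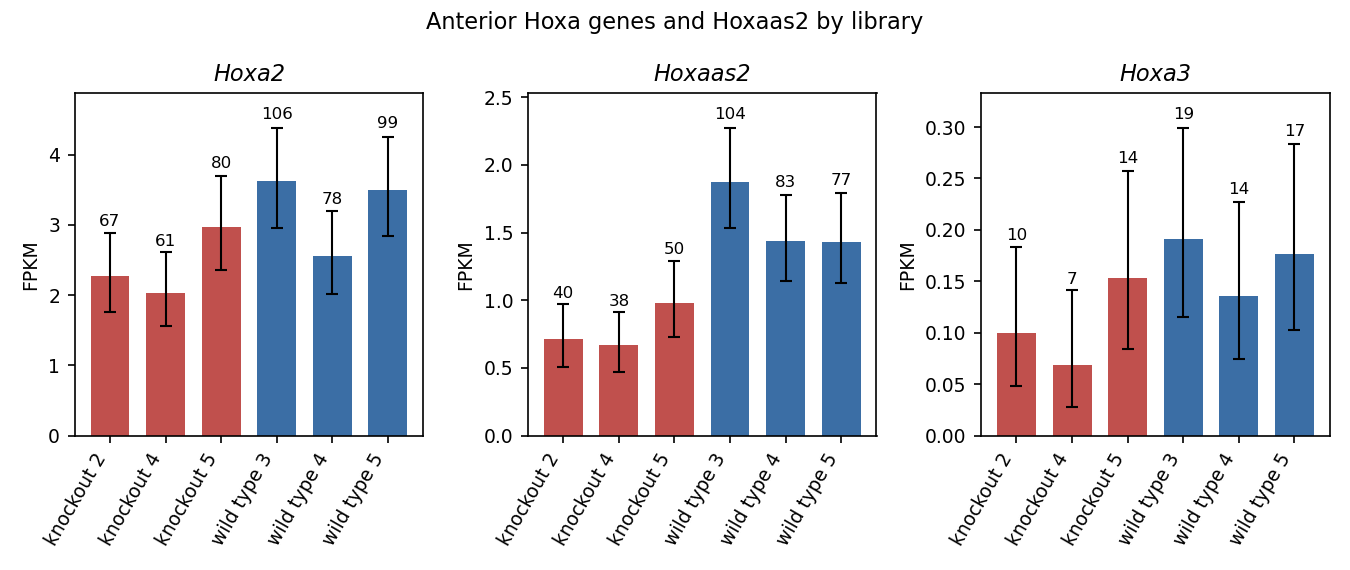
FPKM of Hoxa2, Hoxaas2 and Hoxa3 in each library (red, knockout; blue, wild type), with exact 95% Poisson intervals as error bars and the number of fragments above each bar. The knockout bars of Hoxaas2 all lie below its wild type bars, while those of Hoxa2 and Hoxa3 overlap.

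The other 14 non-member rows between the ends of the clusters were low. There were 8 such rows in Hoxa, Hoxaas2 included, 4 in Hoxb, 0 in Hoxc and 3 in Hoxd. Haglr of the Hoxd cluster had 8 fragments in the libraries labelled knockout and 10 in wild type, and Hoxb3os had 13 and 16. The exact intervals of both rate ratios held 1. Genes that overlap on opposite strands may share fragments, so Hoxb3os with Hoxb2 and Hoxb3 are uncertain as well.

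Most flanking genes that had a row had a mean above 1, with the Hoxb side the exception. Of the 24 nearest protein-coding rows, 3 on each side of each cluster, 20 had a mean FPKM of at least 1, with a median of 9.61. They lay from 28.9 kb (Ttll6) to 910 kb (Nfe2l2) from their cluster. Genes without a row, such as the Hox-linked gene Evx2, could not enter, so silent neighbours may be missing from this count. The nearest rows on each side were Skap2 (2.20 FPKM) and Evx1 (0.00362) for Hoxa, and Ttll6 (0.966) and Skap1 (0.0381) for Hoxb. For Hoxc they were Calcoco1 (25.7) and Smug1 (3.47), and for Hoxd Lnpk (1.39) and Mtx2 (8.79). Mtx2, for a protein of the mitochondrial outer membrane, lies 60.7 kb from the Hoxd cluster and was at 8.86 FPKM in the libraries labelled knockout and 8.73 in wild type. The 4 below a mean of 1 were Evx1, a homeobox gene linked to Hoxa, and 3 of the 6 beside Hoxb, namely Ttll6, Skap1 and Calcoco2 (0.0940). Of the 24, 0 were called by limma.

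The TALE partners were all present, although few Hox genes were. Each of the 9 had a mean FPKM of at least 1, with Pbx2 (21.2) and Meis3 (16.5) highest. Of the 9 tested, 0 were called by limma, 2 were higher and 7 lower, and the median log2 difference was -0.05 against 0.02 over all tested genes. Meis1 and Meis2, chosen here after their values were seen, had groups that did not overlap, as did 24.8% of all tested genes (9.54% with knockout lower). Meis1 had an FPKM of 1.27, 1.48 and 2.36 in the knockouts and of 2.44, 2.77 and 2.94 in the wild types (log2 -0.48, SE 0.151, adjusted p = 0.182, limma). Meis2 had 1.19, 1.58 and 2.00 against 2.27, 3.10 and 2.76 (log2 -0.52, SE 0.138, adjusted p = 0.146, limma). With voom, which called 2.76% of genes, both were called (adjusted p = 0.049996 and 0.0338), though Meis1 not with at least 20 fragments required in place of the filter (0.0543).

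Retinoic acid, which sets anterior Hox expression in the hindbrain, is made by Aldh1a enzymes, broken down by Cyp26 enzymes and read by Rar receptors. Of the 14 listed upstream regulators with a row, 10 were tested and 0 were called by limma (6 higher, 4 lower, median log2 0.00). The receptor gene Rarg was at 37.9 ± 1.29 FPKM against 43.6 ± 1.86 in wild type (SD, n = 3), and Rara at 17.5 ± 0.752 against 20.95 ± 0.530 (log2 -0.25, SE 0.047, adjusted p = 0.0924, limma; 0.0350 with voom). Aldh1a1 was at 13.4 ± 0.334 against 11.2 ± 0.717. The Cdx genes, which drive posterior Hox expression, were near 0, with Cdx1 at a mean of 0.0232 and Cdx4 at 0.00494 FPKM, and Cdx2 had no row and was not analysed here.

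**Figure D3:**
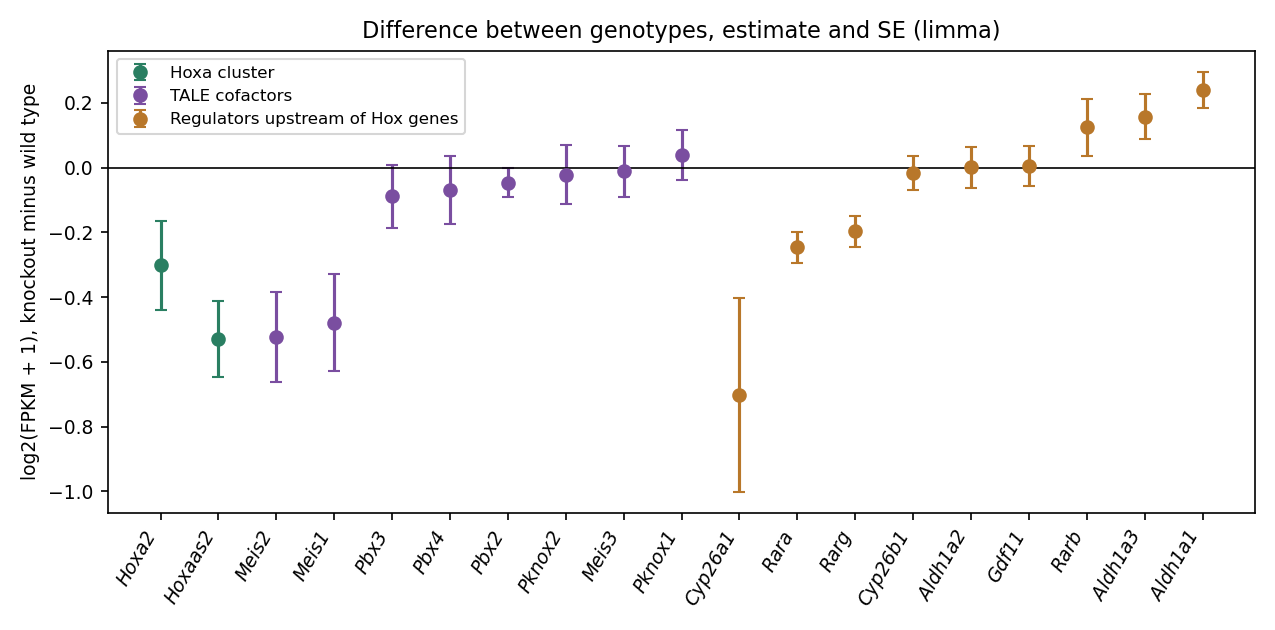
Difference between libraries labelled knockout and wild type on the log2(FPKM + 1) scale for Hoxa2, Hoxaas2, 8 TALE partners and 9 tested upstream regulators, with the limma standard error as bars. Estimates below 0 are lower in knockout. Hoxaas2, Meis1, Meis2 and Cyp26a1 lie lowest, and none was called by limma.

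Polycomb and trithorax genes, which keep Hox clusters silent or active, were expressed throughout. All 19 had a mean of at least 1 FPKM, led by Phc2 (26.8) and Pcgf2 (25.1), and Ezh2, a Polycomb histone methyltransferase, was between 5.35 and 6.67 FPKM in the 6 libraries. Of the 19 tested, 0 were called (11 higher, 8 lower, median log2 0.03).

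The listed regulators of the head and ear, most of them homeobox genes, were far more often expressed than Hox genes. Of 25 anterior head and otic genes, 13 had a mean of at least 1 FPKM, with Pou3f4 of otic mesenchyme at 86.3 and Six2 at 48.5. Of 18 pharyngeal arch and cranial crest genes with a row, 12 did, with Dlx5 at 63.8. Among the 23 Hox members the count was 1. The forebrain and midbrain genes Otx2 (0.431) and En1 (0.143) were low, as was Gbx2 (0.182). Of the ParaHox and Hox-linked list 4 of 8 had a row, Meox1 (3.86) and Meox2 (2.38) above 1 and Gsx1 and Evx1 near 0. Across these 3 lists, 0 genes were called by limma. Among the 14 tested head and otic genes, 11 were higher and 3 lower (median log2 0.12, against 0.02 over all tested genes). Among the 12 tested arch and crest genes, 3 were higher and 9 lower (median log2 -0.11), and both tested genes of the third list were lower. Pou3f4 was higher in knockout (log2 0.26, SE 0.046, adjusted p = 0.0792, limma), and was called with voom (adjusted p = 0.0237), which called 2.76% of genes. Dlx5 was at 61.7 ± 6.07 against 65.9 ± 1.57 (SD, n = 3; adjusted p = 0.505, limma). Over all 6 positional lists 0 of 66 tested genes were called, and 18 had an unadjusted p under 0.05 by limma, where 17.6% of all tested genes did.

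**Figure D4:**
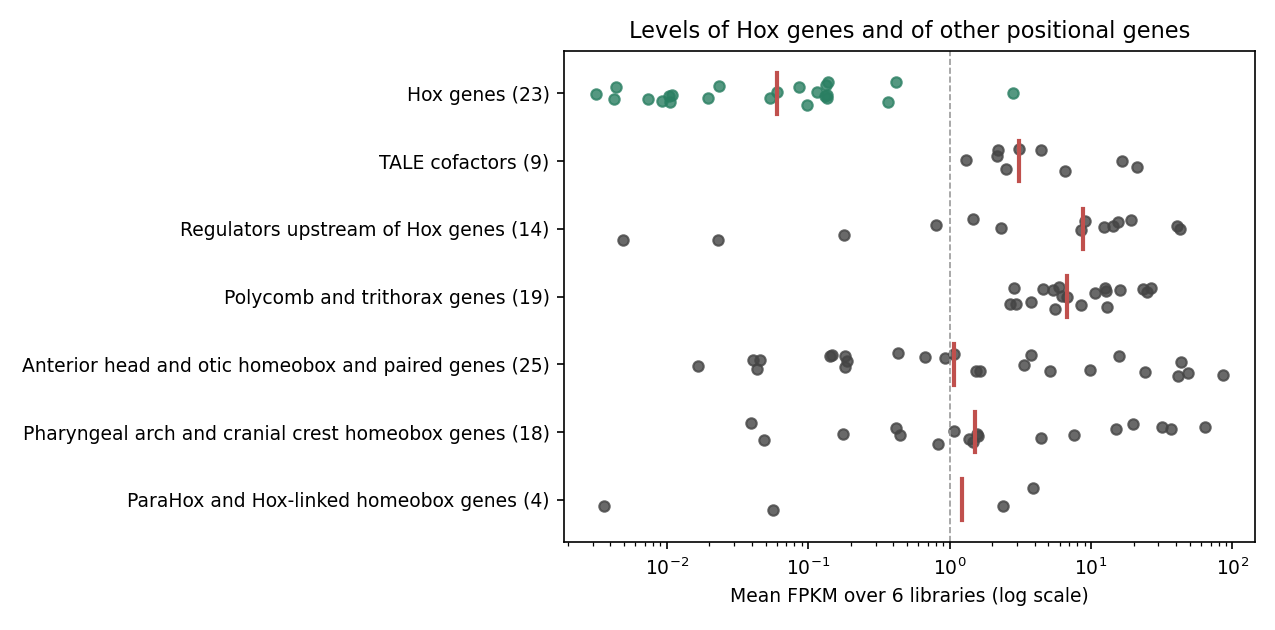
Mean FPKM over the 6 libraries (log scale) of the 23 Hox members and of the genes of the 6 positional lists, each point 1 gene, with the number of genes in brackets, the list median as a red line and an FPKM of 1 as a dashed line. All but 1 of the Hox points lie left of the dashed line, while all 9 TALE and all 19 Polycomb and trithorax points lie right of it.

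Marker sums of some tissue around the cochlea lay lower in the libraries labelled knockout, as did the means of Hoxa2 and Hoxaas2. The 8 middle ear epithelium genes summed to 2.65 to 96.7 FPKM in the libraries labelled knockout and to 384 to 728 in wild type. Both tested members, Bpifa1 and Foxj1, were lower, 0 were called, and Scgb3a2, Scgb1a1 and Sec14l3 were listed at 0 in knockout 2. The 6 mast cell genes summed to 6.83 to 16.0 against 30.6 to 36.7 FPKM, with 1 of 4 tested, Mcpt4, called lower (adjusted p = 0.0425, limma), where 0.206% of all tested genes were. The arch gene Barx1, named after its values were seen, had 0.601, 0.887 and 2.92 FPKM in the knockouts and 5.54, 8.52 and 8.09 in the wild types (log2 -1.86, SE 0.327, adjusted p = 0.0792, limma, and 0.0139 with voom). The wild types alone took Barx1 past the filter, so these p-values support nothing. Within the knockouts, Bpifa1, Barx1, Hoxa2 and Hoxaas2 were all highest in knockout 5. Within the wild types the order was not shared: Hoxa2 and Hoxaas2 were highest in wild type 3, where Barx1 and the middle ear sum were lowest, and Hoxa2 was lowest in wild type 4, where both were highest. The part of this tissue in the Hoxa2 and Hoxaas2 differences was not tested.

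The other marker lists overlapped between the groups, except for brain, hair cell and strial genes. Skeletal muscle genes summed to 30.0 to 246 FPKM in knockout and 136 to 583 in wild type, and the trunk, limb and kidney list to 43.0 to 56.4 against 48.5 to 62.7. Most of the latter sum came from Tbx18 (mean 23.7 FPKM), also of otic mesenchyme, and Osr1, also used in the head. That sum therefore does not measure trunk, limb or kidney tissue alone, and 3 of the 8 members had a mean of at least 1. Hindbrain and brain genes summed to 14.5 to 14.8 against 10.7 to 13.8, without overlap, with 5 of 5 tested genes higher and 0 called. Of that list's 8 genes, 5 had a mean of at least 1 FPKM (up to 4.90), and only the neuronal genes Gabra6 and Slc6a5 stayed under 0.1 in every library. Haematopoietic progenitor (35.1 to 36.8 against 33.1 to 36.3), B cell precursor (17.4 to 19.0 against 15.7 to 18.1), Schwann cell (1074 to 1252 against 949 to 1694), osteoblast (7855 to 10077 against 8148 to 9183) and chondrocyte sums (4178 to 5038 against 4223 to 4705) overlapped. Hair cell (31.0 to 36.7 against 26.7 to 29.3) and strial marginal cell sums (81.1 to 86.3 against 68.7 to 71.9) were higher in knockout. Of the 5 strial genes tested, 1, Esrrb, was called higher (adjusted p = 0.0456, limma), where 18 of all 14072 tested genes were.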

How the data were processed

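The authors deposited 1 table of FPKM values per gene and library. The build was GRCm38, per the submitters' processing notes. Not given in the sources used here were the aligner, counting tool and strand setting. FPKM times exon length (GENCODE M21) divided by 1 step per library gave whole fragments, within 0.01 plus a relative 1e-06, for 98.3% of genes in all libraries and for all 23 Hox members. The 14072 genes that reached an FPKM of 1 in 3 or more libraries entered limma on the log2(FPKM + 1) scale (trend, two-sided, Benjamini-Hochberg, threshold 0.05). Changes of low genes are understated on it. Rate ratios have exact conditional 95% intervals. Members and lists were chosen with earlier results of these data known. Named genes were the members, the genes next to a cluster, Neu4, and up to 4 called or the 2 highest members of lists described by gene; others named were chosen after their values were seen. A few items are not reported here. The limma script was tested on simulated data. Voom on genes with at least 20 fragments was an alternative added after seeing the data. Promoters are from RefSeq. Software was matplotlib 3.10.9, scipy 1.17.1, pandas 2.3.3, numpy 2.4.6 and Python 3.11.15, with limma 3.58.1 in R 4.3.3.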

Additional observations from a re-analysis of the deposited data

How the results depend on the processing

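The count of Hox members called by limma stayed at 0 under every alternative run, and Hoxa2 stayed lower in knockout and uncalled in all 15 (log2 -0.42 to -0.20, adjusted p = 0.225 to 0.529), while Hoxaas2 stayed lower in all 15 (log2 -1.02 to -0.42) and was called in the 2 voom fits (adjusted p = 0.0377 and 0.0421). With FPKM of at least 5 required, neither was tested, nor was any other Hox member, so the count of 0 was fixed beforehand there. Runs that kept the filter at an FPKM of 1 tested Hoxa2 alone among the members. The number of expressed members was 1 at limits of 0.5 and 2 and without each library. Over all genes, the 47 calls became 21 with FPKM of at least 0.1, 19 with no filter, 103 with FPKM of at least 5, 24 with sex as a covariate, 381 with voom, and 322 with voom on genes of at least 20 fragments; the cause was not tested. Leaving out 1 library gave 12 to 105 calls, with 105 when knockout 5 was left out, 15 and 16 for knockouts 2 and 4, and 12, 12 and 21 for the wild types. Of the positional list genes, 66 were tested and 0 called by the main settings. With voom 6 were called, where 2.76% of all genes were, and 5 in the other voom fit, where 1.67% were. With FPKM of at least 5, 1 (Barx1) was called, and with 1 library left out 0 to 1 (Barx1 without knockout 5). Barx1 passes the filter at 5 through the wild types alone, where it is high, so that call is no support. Among rows in or next to a cluster, 1 (Hoxaas2) was called in both voom fits. With 1 library left out, Meis3 ranged from a log2 difference of -0.0779 to 0.0722, positive without knockout 5 (0.0096) or wild type 5 and never called. Median-ratio scaling moved the median of all genes by -0.02. Replicate numbers 4 and 5 are shared by both groups, with deviations correlating at 0.141 and 0.150, but the labels do not say that a number marks a shared litter or day. With a replicate block, 22 genes were called, 0 of them Hox members (Hoxa2 log2 -0.20, adjusted p = 0.474; Hoxaas2 -0.42, 0.378). In the near-silent members 1 fragment is 0.0104 to 0.0363 FPKM, so depth sets what can be said of them.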

Other observations

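Values of some other regulators of regional identity follow, named after their values were seen. Their spread was not compared with that of the Hox genes. Osr1, a gene of trunk and limb mesenchyme that is also used in the head, had an FPKM of 8.31, 7.89 and 16.8 in knockouts 2, 4 and 5 and of 15.4, 23.2 and 29.5 in wild types 3, 4 and 5, so the groups overlapped in 1 library (log2 -1.01, SE 0.311, n = 3, adjusted p = 0.175, limma). Pitx1, known from the hindlimb and first arch, had 0.0904, 0.0445 and 0.174 FPKM in the knockouts and 1.23, 2.04 and 0.589 in wild type, without overlap, and was not tested at this level. Barx2, the paralog of Barx1, had 0.0915, 0.0600 and 0.201 against 0.462, 0.532 and 1.18, again without overlap and below the filter. Groups did not overlap, with knockout lower, in 6.26% of all rows. Tbx18 of otic mesenchyme went the other way, at 26.8 ± 2.65 FPKM in the libraries labelled knockout and 20.6 ± 1.48 in wild type (SD, n = 3; log2 0.37, SE 0.080, adjusted p = 0.116, limma).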
